A study of Mus musculus with 16 samples.

Results

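Of 16 RNA-sequencing libraries of cultured mouse bone marrow-derived macrophages, the 8 that received vehicle were divided by how much transcript of connective-tissue cells they carried. The classes were chosen by the measured level of Col1a1, the gene of a type I collagen chain that fibroblasts and osteoblasts make and macrophages hardly do. Vehicle libraries above 50 FPKM are called stroma-rich and those below stroma-poor, where FPKM is the number of fragments per kilobase of exon scaled to sequencing depth. The 4 stroma-rich libraries were wild-type replicates 1, 2 and 4 and knockout-labelled replicate 4. The 4 stroma-poor libraries were wild-type replicate 3 and knockout-labelled replicates 1, 2 and 3. Genotype was therefore unbalanced at 3 to 1 in each class. Unless a genotype or a left-out library is named, each vehicle difference on the log2 scale is balanced. It is the mean of the difference within wild type (3 rich, 1 poor) and that within the knockout label (1 rich, 3 poor). Means, SDs and folds in FPKM pool the 4 libraries of a class and are not balanced for genotype. Because Col1a1 in these same libraries made the classes, the vehicle comparison is a description and carries no test.

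Marrow holds blood-forming cells and a supporting stroma of fibroblast-like reticular cells, osteoblast precursors, fat cells and vessel cells. When marrow is plated in medium conditioned by L929 fibroblasts, a source of the macrophage growth factor CSF1, most cells become adherent macrophages, but stromal cells also adhere and can persist. Stromal cells lay down collagen and fibronectin and release CXCL12, KIT ligand, CSF1 and other signals, whereas macrophages engulf particles, take up lipoproteins and present antigen.

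The series addresses FOXO3, a transcription factor of the forkhead family, in glucocorticoid receptor signalling. All 16 cultures came from FVB/N mice. Wild-type cells and cells labelled FOXO3-/- each received DMSO, the vehicle, or 100 nM dexamethasone, a synthetic glucocorticoid, for 24 h, with 4 libraries in each of the 4 groups. The labels name no Cre driver and do not tell whether each replicate was its own animal or culture, and the p-values below therefore reflect library-to-library spread, which may be technical. In bulk libraries such as these, fewer cells of a type and less RNA per cell cannot be told apart.

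Reads on genes, recovered from the FPKM values, lay between 16886700 and 20584600 per library, and a gene of 2 kb at 1 FPKM rested on 32.9 to 39.7 reads. Foxo3 itself (ENSMUSG00000048756) ranged from 22.9 to 26.4 FPKM in the stroma-rich and from 23.2 to 24.7 FPKM in the stroma-poor libraries, which overlapped. Its value covers all annotated exons and the sources used here do not give the deleted part, so this value checks no genotype label, and each genotype named here rests on its label.

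Col1a1 (ENSMUSG00000001506, chromosome 11, 94936224 to 94953042, plus strand, GRCm38) measured 127, 124 and 174 FPKM in the stroma-rich wild-type libraries and 95.8 FPKM in the stroma-rich knockout-labelled library. The stroma-poor libraries held 6.77 FPKM in wild type and 4.76, 0.506 and 0.395 FPKM under the knockout label. The library just above the dividing line was thus knockout-labelled replicate 4 at 95.8 FPKM, and the library just below it was wild-type replicate 3 at 6.77 FPKM. The 2 other marker genes gave the same order of classes. Col3a1, a type III collagen chain, measured 113, 117, 86.0 and 86.2 FPKM in the rich libraries and 6.06, 2.31, 0.289 and 0.182 FPKM in the poor ones. Cxcl12, the chemokine by which marrow stroma holds blood-forming cells, measured 49.1, 75.5, 37.1 and 33.9 FPKM in the rich libraries and 4.18, 0.170, 0.0221 and 0.0141 FPKM in the poor ones.

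**Figure D1:**
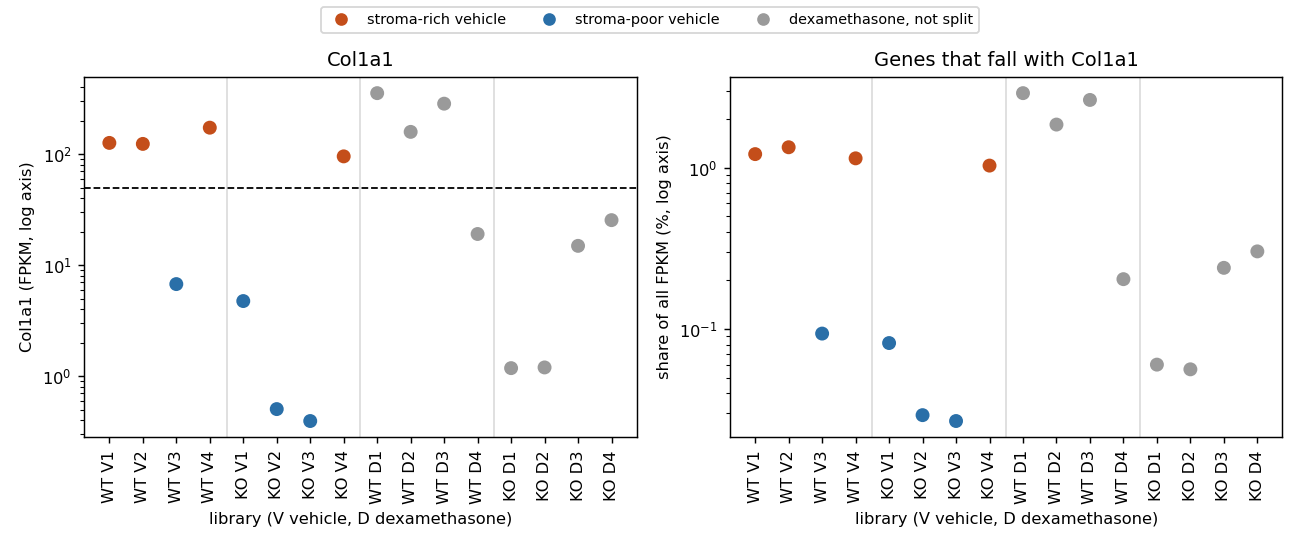
Each point is 1 library, with Col1a1 in FPKM on a log axis at the left (dashed line at 50 FPKM) and, at the right, the percent of all FPKM carried by the 430 genes that lay below 20% of their rich level in the poor libraries of both genotypes. The 4 stroma-rich vehicle libraries carried 1.03% to 1.34% of their FPKM in these genes and the 4 stroma-poor ones 0.0269% to 0.0937%, while dexamethasone libraries spanned both ranges. These genes were picked by their levels in the same vehicle libraries, so the gap between the vehicle classes at the right was fixed by that choice.

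All libraries remained macrophage cultures by their markers. The sum of 28 measured macrophage identity genes ranged from 18488 to 19290.0 FPKM in the rich and from 18656 to 22607 FPKM in the poor libraries. The sum of 16 collagen genes other than Col1a1, which made the classes, ranged from 326 to 455 FPKM in the rich and from 6.65 to 30.1 FPKM in the poor libraries.

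A gene was called higher or lower when the 4 rich and the 4 poor libraries did not overlap and the genotype-balanced difference was at least 1 on the log2(FPKM + 1) scale. Of 11654 genes that reached 1 FPKM in 4 or more of the 16 libraries, 538 (4.62%) were called higher in stroma-rich cultures and 53 (0.455%) were called lower. Without the size limit, 1429 genes (12.3%) were higher and 1927 (16.5%) lower with no overlap, so shifts that separated the classes were common and mostly small. The median difference over all genes was -0.04. Of the 538 genes, 347 were under 1 FPKM in all 4 poor libraries and passed the filter through other libraries, so counts over the measured members of a stromal list describe those members and do not stand for the whole list. Leaving out wild-type replicate 3, the only stroma-poor wild-type library, gave 92 genes called lower, and a split at 5 FPKM of Col1a1 gave 261 called higher and 32 called lower, of which 251 and 13 were among the 538 and the 53.

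The 538 genes were then sorted by how much of them the stroma-poor cultures still held. The share left is the mean FPKM of the poor libraries as a percent of the mean of the rich libraries of the same genotype. Col1a1 itself had 4.78% left in wild type and 1.97% left under the knockout label. In 430 genes less than 20% was left in both genotypes, as for Col1a1. In 79 genes 20% or more was left in both, so the poor cultures, nearly without collagen transcripts, still held them, and 29 genes were mixed. At a limit of 10% in place of 20% these counts were 315, 150 and 73. The 2 within-genotype differences mostly shared their direction for the genes far from 0, but not always their size. Col3a1 differed by 3.90 in wild type and 5.67 under the knockout label, and the collagen gene Col4a1 by 3.22 and 3.31. Of all genes, 483 had differences of at least 1 in both genotypes, 32 had differences of -1 or less in both, and 3 had such differences in opposite directions.

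**Figure D2:**
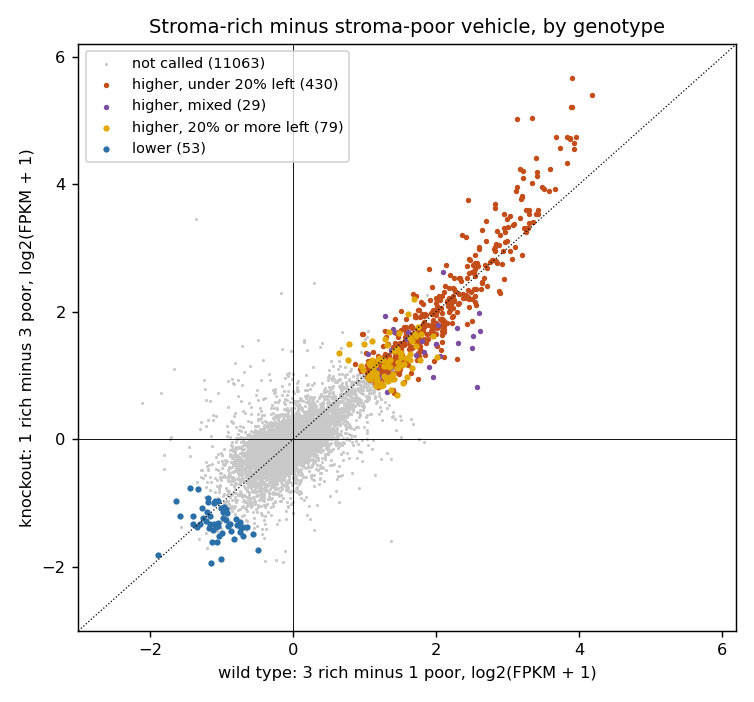
Each point is 1 of the 11654 genes, with the difference between rich and poor vehicle libraries in wild type on the horizontal and under the knockout label on the vertical axis, both in log2(FPKM + 1), and the dotted line marks equal values. The 430 genes with under 20% left extend to the upper right, the 79 genes with 20% or more left lie nearer the origin, and the 53 called lower sit at the lower left.

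The dexamethasone libraries took no part in making the classes, share no library with the vehicle comparison, and also varied in Col1a1, with 356, 159, 286 and 19.1 FPKM in wild-type replicates 1 to 4 and 1.18, 1.20, 15 and 25.5 FPKM in knockout-labelled replicates 1 to 4. In them each gene was fitted on genotype and log2(Col1a1 FPKM + 1) with limma. A slope of 1 means that a gene moved as much as Col1a1 did on the log2(FPKM + 1) scale, and a slope of 0 that it did not move with it. Of 11653 genes tested, 506 (4.34%) passed an adjusted p of 0.05 with a positive and 41 (0.352%) with a negative slope. Of the 537 genes called higher in vehicle that could be tested, 532 had a positive slope, 322 passed and 0 passed with a negative slope (2357 genes of all 11653 had an unadjusted p under 0.05 in either direction). Of the 53 genes called lower in vehicle, 44 had a negative slope, 4 passed as negative and 1, Adamts1, passed as positive. Over all genes, 40.6% of slopes were positive and the median slope was -0.01. Wild-type replicate 4, which had the lowest Col1a1 of its group, carried much of the fit: without it 241 genes passed as positive and 11 as negative. Of these 241 and 11, 227 and 3 were among the 506 and the 41. Without wild-type replicate 1 the counts were 263 and 15, without wild-type replicate 3 they were 282 and 17, and without knockout-labelled replicate 4 they were 605 and 134. The negative count was also 25 without knockout-labelled replicate 1 and 27 without knockout-labelled replicate 3.

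**Figure D3:**
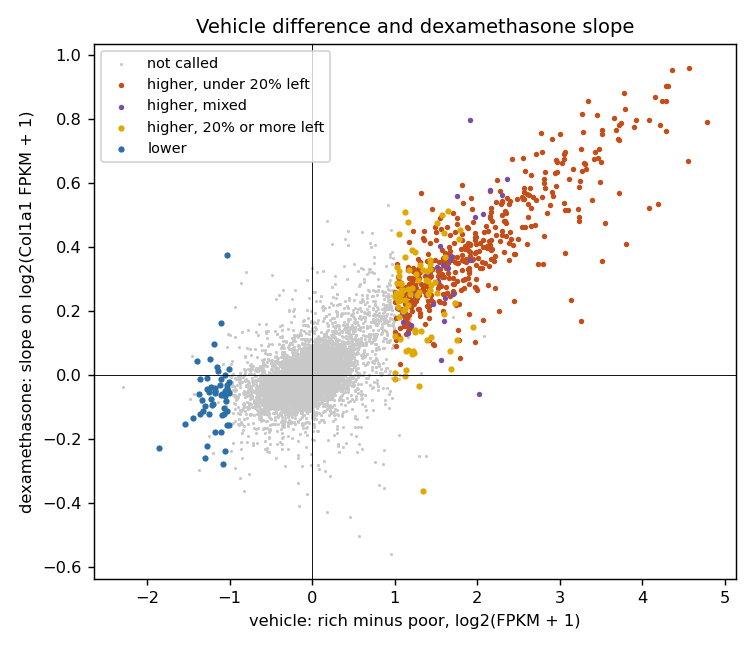
Each point is 1 gene, with the vehicle difference between rich and poor libraries in log2(FPKM + 1) on the horizontal axis and the slope on log2(Col1a1 FPKM + 1) in the 8 dexamethasone libraries on the vertical axis. Genes with the largest vehicle differences also have the steepest positive slopes, whereas genes called lower in vehicle mostly lie between slopes of -0.3 and 0.2. Across genes, which are not independent, Pearson r was 0.806 and Spearman rho, on ranks, was 0.540.

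Collagen genes made the clearest block. With Col1a1 left out, 13 of 15 measured chains of fibrillar and network collagens were called higher in stroma-rich cultures, beside 4.62% of all genes. The remaining pair, Col15a1 and Col18a1, were higher without overlap but by 0.90 and 0.95, and the median difference of the 15 was 2.996. Col1a2, the partner chain of Col1a1 in type I collagen, measured 81.4, 82.9, 96.5 and 64.2 FPKM in the rich libraries and 4.63, 4.69, 0.772 and 0.436 FPKM in the poor ones. That was 81.3 ± 13.3 against 2.63 ± 2.34 FPKM (SD, n = 4 each), with no overlap. Under dexamethasone it moved almost one for one with Col1a1, at a slope of 0.95 ± 0.02 (SE; limma adjusted p = 3.4e-07). Col6a1, a chain of the beaded type VI collagen around cells, stood at 82.0 ± 14.9 against 2.59 ± 2.35 FPKM, and Col4a1, a basement membrane chain, at 18 ± 1.71 against 0.846 ± 0.590 FPKM. Their slopes under dexamethasone were 0.90 ± 0.04 and 0.82 ± 0.03 (SE; limma adjusted p = 6.4e-06 for both). In all, 14 of 15 collagen genes other than Col1a1 passed with a positive slope, beside 4.34% of all genes. The pair that was not called encodes basement membrane collagens. Of Col18a1, 40.8% was left in wild type and 54.7% under the knockout label, and its slope was 0.22 ± 0.02 (SE; limma adjusted p = 0.000828). Of Col15a1, 23.4% and 19.9% were left, and its slope of 0.11 ± 0.04 was the 1 among the 15 that did not pass (SE; limma adjusted p = 0.161).

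The enzymes and chaperones that build collagen separated into genes that were low wherever Col1a1 was and genes that every culture held. Of 19 measured, 10 were called higher and 0 lower, beside 4.62% and 0.455% of all genes. Their median difference was 1.30, and 10 passed with a positive slope under dexamethasone, beside 4.34% of all genes. Serpinh1, the chaperone that folds procollagen, stood at 78.3 ± 13.6 FPKM in rich and 2.43 ± 1.97 FPKM in poor libraries. Lox, which cross-links collagen and elastin outside the cell, stood at 60.2 ± 7.40 and 2.95 ± 1.54 FPKM. P4hb, a disulfide isomerase that is also a subunit of prolyl hydroxylase and works on many secreted proteins, ranged from 219 to 259 FPKM in rich and from 209 to 251 FPKM in poor libraries, which overlapped. P4ha1, a catalytic subunit of the same hydroxylase, and Crtap, a partner of another prolyl hydroxylase, had differences of 0.21 (0.39 in wild type and 0.03 under the knockout label) and 0.05 (0.29 and -0.20). P4ha2, a second catalytic subunit, stood at 4.26 against 0.880 FPKM in mean and was called higher.

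Matrix glycoproteins followed the collagens, with 25 of 28 measured genes called higher and 0 lower, beside 4.62% and 0.455% of all genes. Their median difference was 2.56, and 23 passed with a positive slope, beside 4.34% of all genes. Sparc, a collagen-binding matrix protein, measured 130, 140, 155 and 113 FPKM in the rich and 8.50, 6.60, 1.07 and 0.851 FPKM in the poor libraries. It had the steepest slope of all named genes under dexamethasone, 0.96 ± 0.03 (SE; limma adjusted p = 7.35e-07). Fn1, fibronectin, which both fibroblasts and some macrophages make, measured 131 to 149 FPKM in the rich and 2.07 to 10.3 FPKM in the poor libraries, and its share left was 6.36% in wild type and 3.77% under the knockout label. Decorin (Dcn), a collagen-binding proteoglycan, was mixed, with 8.72% left in wild type and 20.3% left under the knockout label, where the rich library itself held only 4.65 FPKM. Ecm1, a secreted protein of matrix and of immune cells, was of another kind. It measured 85.2, 74.6, 78.9 and 60.1 FPKM in the rich and 36, 29.9, 30.7 and 21.9 FPKM in the poor libraries, so 45.2% and 45.7% were left in the 2 genotypes. Under dexamethasone Ecm1 lay between 134 and 241 FPKM in all 8 libraries and its slope on Col1a1 was -0.00 ± 0.05 (SE; limma adjusted p = 0.986).

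Matrix proteases and their inhibitors ran in both directions. Of 21 measured, 14 were called higher, 1 was called lower, and 11 passed with a positive slope, beside 4.62%, 0.455% and 4.34% of all genes. Mmp2, a gelatinase of fibroblasts, stood at 51.1 ± 6.39 against 1.26 ± 1.15 FPKM, and Timp1, an inhibitor of such proteases, at 59.2 ± 6.94 against 4.60 ± 3.18 FPKM. Mmp3 and Mmp13, a stromelysin and a collagenase, were called higher in vehicle at 20.2 ± 8.96 against 0.613 ± 0.640 FPKM and 55.5 ± 18.6 against 2.72 ± 2.21 FPKM. Under dexamethasone Mmp3 reached at most 1.93 FPKM in any library, and neither Mmp3 nor Mmp13 passed (slopes 0.17 ± 0.07 and 0.36 ± 0.14, SE; limma adjusted p = 0.221 and 0.205). Mmp14, a membrane-anchored protease that activates MMP2, was mixed, with 15.5% left in wild type and 35.2% left under the knockout label. Genes on the lower side included Plau, the urokinase that activates plasminogen, at 41.9 against 81.3 FPKM in mean without overlap, and Mmp12, the macrophage elastase, at 88.2 ± 32.4 against 130 ± 52.8 FPKM with overlap. Within each genotype Mmp12 did not overlap, at 91.1 to 111 against 208 FPKM in wild type and 41.6 against 94.8 to 109 FPKM under the knockout label. Its balanced difference was -1.15. The 1 gene called lower was Adamts1, an aggrecan-cleaving protease. Adamts1 measured 15, 15.9, 13.9 and 10.02 FPKM in the rich and 22.5, 35.9, 28.0 and 26.7 FPKM in the poor libraries. Under dexamethasone its direction was the opposite, with a slope of 0.37 ± 0.06 (SE; limma adjusted p = 0.015): the wild-type libraries with high Col1a1 held 24.0 to 35.9 FPKM and the other 5 held 3.92 to 7.66 FPKM. Its vehicle difference of -1.03 shrank to -0.56 without knockout-labelled replicate 4.

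Surface and nuclear proteins of fibroblasts gave 15 of 21 measured genes called higher, 0 lower and 15 with a positive slope that passed. The shares over all genes were 4.62%, 0.455% and 4.34%. Pdgfra, a growth factor receptor of mesenchymal cells, stood at 14.9 ± 4.26 against 0.662 ± 0.611 FPKM, and Twist1, a mesenchymal transcription factor, at 5.94 ± 1.15 against 0.249 ± 0.207 FPKM. Of 17 contractile genes, 12 were called higher, 0 lower and 13 passed with a positive slope, beside the same shares of all genes. Acta2, smooth muscle actin, stood at 49.5 ± 13.1 against 1.52 ± 0.996 FPKM, and Myl9, a myosin light chain of such cells, at 25.8 ± 6.40 against 0.711 ± 0.742 FPKM. The broadly expressed cytoskeletal genes Flna and Csrp1 had differences of -0.07 and -0.02.

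Many growth factor and niche signal genes were higher in stroma-rich cultures, but not all were low in stroma-poor ones. The 38 listed genes summed to 956 to 1032 FPKM in the rich and 705 to 834 FPKM in the poor libraries. Of 29 measured, 20 were called higher and 0 lower, beside 4.62% and 0.455% of all genes. Their median difference was 1.66, and 10 passed with a positive slope under dexamethasone, beside 4.34% of all genes. Csf1 (ENSMUSG00000014599, chromosome 3, 107741048 to 107760469, minus strand, GRCm38), the growth factor on which macrophages depend, measured 37.7, 38.7, 35.0 and 30.1 FPKM in the rich and 4.42, 5.98, 2.59 and 1.41 FPKM in the poor libraries. With means of 35.4 ± 3.86 and 3.60 ± 2.01 FPKM, the rich cultures held 9.82-fold more Csf1 transcript, and 11.9% and 11.1% were left in the 2 genotypes. Under dexamethasone its slope was 0.74 ± 0.04 (SE; limma adjusted p = 2.64e-05). Il34, the other ligand of the same receptor, stood lower in level at 3.35 ± 0.814 against 0.216 ± 0.135 FPKM and passed with a slope of 0.45 ± 0.06 (SE; limma adjusted p = 0.00456). The receptor gene Csf1r, which macrophages express, ranged from 574 to 757 FPKM in the rich and from 488 to 587 FPKM in the poor libraries, an overlap, and its slope was -0.02 ± 0.03 (SE; limma adjusted p = 0.717).

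Cxcl12 did not pass under dexamethasone (slope 0.53 ± 0.16, SE; limma adjusted p = 0.111). It measured 214, 86.6, 219 and 12.2 FPKM in the wild-type and 0.0140, 0.0191, 0.154 and 0.197 FPKM in the knockout-labelled dexamethasone libraries, so the knockout-labelled libraries with Col1a1 of 15 and 25.5 FPKM were still near 0. In vehicle, 7.76% of Cxcl12 was left in wild type and 0.203% under the knockout label. Serping1, the inhibitor of the first complement component, showed a like spread, with 5.38% and 0.729% left, and at most 1.72 FPKM in knockout-labelled dexamethasone libraries against 13.6 to 266 FPKM in wild-type ones. Its slope of 0.67 ± 0.13 passed (SE; limma adjusted p = 0.0288), but the adjusted p was 0.177 without wild-type dexamethasone replicate 4, and between 0.0554 and 0.0808 without each of 4 other libraries (wild-type replicates 1, 2 and 3, knockout-labelled replicate 3). Vegfa, the vessel growth factor, stood at 11 ± 0.638 against 1.74 ± 0.562 FPKM and passed with a slope of 0.34 ± 0.05 (SE; limma adjusted p = 0.00845). Kitl, the ligand of the KIT receptor, was held by poor cultures, with 30.0% and 44.2% left, and did not pass (slope 0.39 ± 0.10, SE; limma adjusted p = 0.0755). Igfbp4, which binds insulin-like growth factors, was abundant in every vehicle library, at 197 ± 25.6 against 123 ± 18.9 FPKM.

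Cytokine and chemokine genes that fibroblasts and macrophages can both make divided by gene. Of 20 measured, 8 were called higher and 0 lower, beside 4.62% and 0.455% of all genes, and the median difference was 0.15. Cxcl5, a neutrophil-attracting chemokine, measured 18.6 to 29.1 FPKM in the stroma-rich and 0.0618 to 1.40 FPKM in the stroma-poor libraries. Ccl2 and Ccl7, which attract monocytes, stood at 29.1 ± 6.99 against 7.11 ± 2.86 FPKM and 44.1 ± 7.37 against 6.39 ± 2.66 FPKM. Ccl2 was held by poor cultures, with 33.4% and 29.0% left, and Ccl7 was mixed, with 21.5% and 14.2% left. Both passed under dexamethasone (slopes 0.50 ± 0.11 and 0.61 ± 0.11, SE; limma adjusted p = 0.0382 and 0.0211), but the adjusted p without wild-type replicate 4 was 0.295 and 0.248, and without wild-type replicate 3 it was 0.0722 and 0.0546. Ccl2 also lost its call without each knockout-labelled replicate in turn (adjusted p from 0.0547 to 0.0838). Ccl8 differed in that the stroma-rich knockout-labelled library was the highest, at 75.7 FPKM, followed by 37.7, 34.5 and 24.4 FPKM in wild type, against 4.65 to 16.4 FPKM in the poor libraries. Its slope under dexamethasone did not pass (0.23 ± 0.08, SE; limma adjusted p = 0.141). The classical macrophage cytokine genes Tnf and Ccl3 were not higher, at differences of -0.38 and -0.60.

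**Figure D4:**
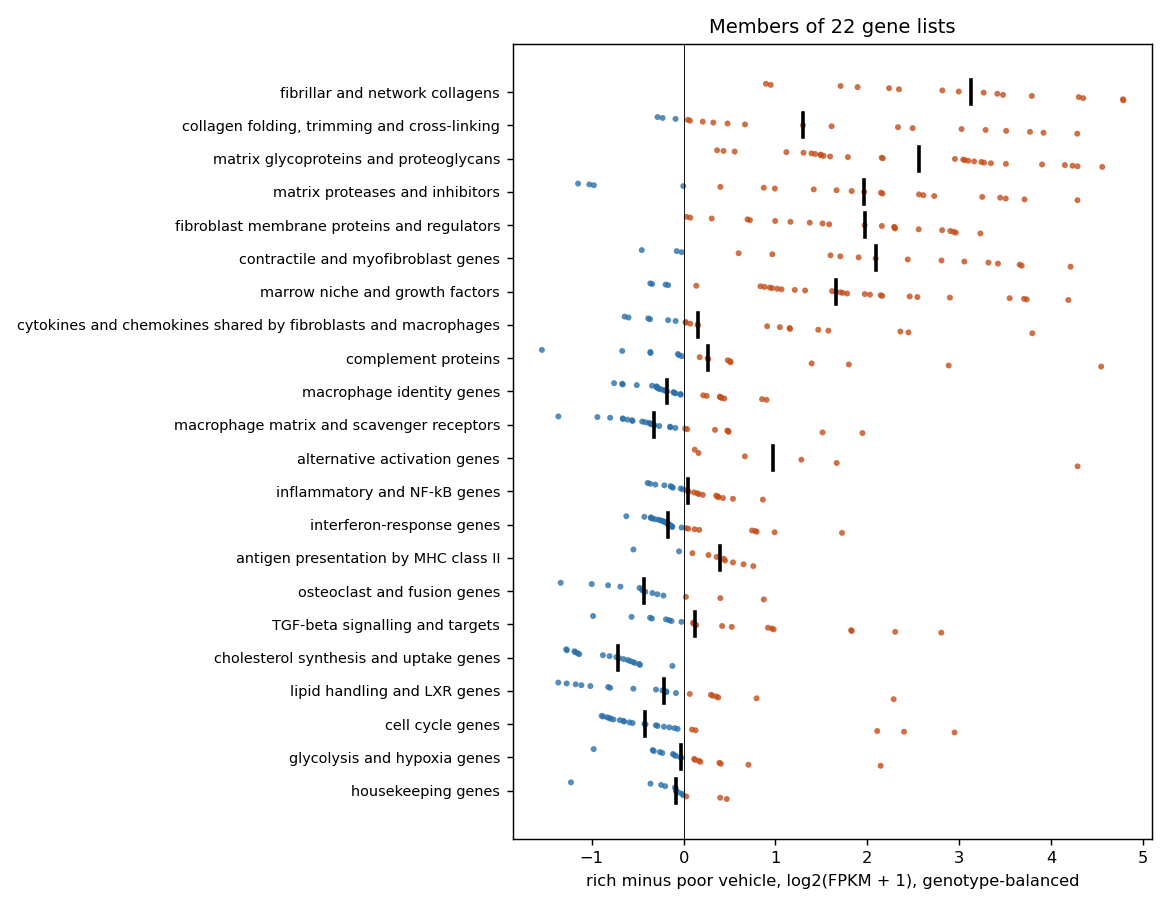
Each point is a measured member of a gene list, placed by its genotype-balanced difference between stroma-rich and stroma-poor vehicle libraries in log2(FPKM + 1), with a black bar at the list's median. Collagens (Col1a1 included), matrix glycoproteins and contractile genes lie far to the right with medians of 3.13, 2.56 and 2.09, macrophage identity genes straddle 0 with a median of -0.18, and cholesterol synthesis genes lie wholly to the left with a median of -0.72.

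Macrophage identity genes had differences between -0.76 and 0.90. Of 27 measured, 0 were called higher and 0 lower, beside 4.62% and 0.455% of all genes. Without the size limit 1 was higher and 8 were lower without overlap, beside 12.3% and 16.5% of all genes, and 0 passed in either direction under dexamethasone, where limma's smallest adjusted p was 0.0583 and 9 of the 27 had an unadjusted p under 0.05. Cd68, a lysosomal protein of macrophages, measured 1169, 1090.0, 1133 and 994 FPKM in the rich and 1237, 1276, 1448 and 1214 FPKM in the poor libraries. Those ranges did not overlap, at a difference of -0.26 that was -0.13 without knockout-labelled replicate 4. Adgre1, which encodes the F4/80 antigen, looked lower in the rich cultures by its means, 725 ± 335 against 1173 ± 294 FPKM. Its values followed the genotype label more than the class: 529, 554 and 591 FPKM in rich wild type, 788 FPKM in poor wild type, 1225 FPKM in the rich and 1189 to 1503 FPKM in the poor knockout-labelled libraries. The difference was -0.50 within wild type and -0.08 within the knockout label, and the balanced value was -0.29. Itgam, which encodes CD11b, had no overlap, at 20.0, 19.7, 19.9 and 34.7 FPKM in the rich and 39.5 to 48.6 FPKM in the poor libraries, a difference of -0.67 that was -0.38 without wild-type replicate 3. The complement gene C1qa, made by macrophages, ranged from 524 to 840 FPKM and from 507 to 874 FPKM, an overlap.

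The 79 genes called higher but held by stroma-poor cultures included several that macrophages are known to express. Of the 79, 75 had a positive slope under dexamethasone and 43 passed as positive, beside 40.6% and 4.34% of all genes. Their median vehicle difference was 1.22 against 1.82 in the 430 genes with under 20% left. That gap is largely set by the share left, which divides the same genes in the same libraries. Spp1, osteopontin, a secreted phosphoprotein of macrophages and bone cells, had the highest level in poor cultures. It measured 525, 542, 427 and 405 FPKM in the rich and 223, 253, 158 and 146 FPKM in the poor libraries, so 44.9% and 45.8% were left. Its slope was 0.48 ± 0.09 (SE; limma adjusted p = 0.0187), with an adjusted p of 0.192 without wild-type dexamethasone replicate 4 and 0.0512 without wild-type replicate 3. Axl, a receptor for GAS6 that clears dying cells and is found on macrophages and fibroblasts, stood at 40.8 ± 9.90 against 10.6 ± 5.86 FPKM, with 38.0% and 32.1% left. It passed with a slope of 0.48 ± 0.05 (SE; limma adjusted p = 0.00167). Nlrp3, the inflammasome sensor of myeloid cells, stood at 19.4 ± 3.80 against 8.28 ± 1.94 FPKM and passed with a small slope of 0.13 ± 0.02 (SE; limma adjusted p = 0.0192), with adjusted p of 0.060 and 0.0609 without wild-type replicates 1 and 4.

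Clec10a and Mgl2, the 2 mouse galactose-type lectins of macrophages and dendritic cells, were higher in stroma-rich cultures and were not lost from stroma-poor ones. Clec10a (ENSMUSG00000000318, chromosome 11, 70156197 to 70170834, plus strand, GRCm38) measured 126, 154, 197 and 255 FPKM in the rich and 47.8, 55.8, 52.2 and 55.7 FPKM in the poor libraries. The poor libraries were close together (52.9 ± 3.79 FPKM), with Col1a1 among them from 0.395 to 6.77 FPKM. The highest of the rich libraries was the one with the least Col1a1. Mgl2 stood at 9.26 ± 2.03 against 2.41 ± 0.674 FPKM. Neither passed under dexamethasone (slopes 0.15 ± 0.07 and 0.07 ± 0.05, SE; limma adjusted p = 0.284 and 0.464). In wild-type dexamethasone replicates 1 to 4, Clec10a measured 267, 206, 229 and 94.9 FPKM, and Mgl2 6.85, 7.26, 6.67 and 3.52 FPKM. Replicate 4 had the least Col1a1 of these. The knockout-labelled dexamethasone libraries held 122 to 151 FPKM of Clec10a and 3.78 to 4.99 FPKM of Mgl2. In the 17 genes listed for alternative activation, 11 others, among them Arg1, Retnla and Chil4, did not pass the filter on low values. Gbp2, a guanylate-binding protein induced by interferon, stood at 62.8 ± 30.8 against 18.9 ± 4.64 FPKM and was the 1 gene called higher among 29 interferon-response genes (median difference -0.17), a share near the 4.62% of all genes. Ly6e, a membrane protein also induced by interferon, stood at 157 ± 50.3 against 91.2 ± 27.0 FPKM.

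Among the 53 genes called lower in stroma-rich cultures, 33 had at least 10 FPKM in the poor libraries. Itgax (ENSMUSG00000030789, chromosome 7, 128129547 to 128150657, plus strand, GRCm38), which encodes CD11c, measured 23.3, 19.3, 22.3 and 12 FPKM in the rich and 48.9, 51.6, 46.5 and 48.5 FPKM in the poor libraries. The poor libraries of both genotypes lay together. Msr1, a scavenger receptor for modified lipoproteins, measured 25.9, 27.4, 28.4 and 23.2 FPKM against 73.2, 64.2, 51.1 and 64.7 FPKM. The stromal gene sums given above move with these differences in the same libraries, and their part in them was not tested. In mean, the poor libraries held 2.54-fold more Itgax and 2.42-fold more Msr1.

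Several lipid genes went with them. Of 20 lipid-handling genes, 5 were called lower against the background of 0.455% and 1 was called higher, a share near the 4.62% of all genes. The latter was Scd1, a desaturase of fatty acids, at 7.99 ± 2.19 against 0.948 ± 0.238 FPKM, which also passed under dexamethasone (slope 0.53 ± 0.10, SE; limma adjusted p = 0.0185). Gpnmb, a lysosomal glycoprotein of lipid-laden macrophages, measured 864, 713, 1134 and 656 FPKM in the rich and 1810.5, 1633, 2278 and 1786 FPKM in the poor libraries. Lpl, the lipase that splits lipoprotein triglyceride, stood at 196 ± 19.1 against 426 ± 38.5 FPKM. The fatty acid carriers Fabp4 and Fabp5 stood at 11.7 ± 3.46 against 24.2 ± 4.52 FPKM and 185 ± 66.8 against 309 ± 24.7 FPKM. The Fabp5 difference of -1.11 was -0.49 without knockout-labelled replicate 4 and -1.74 without wild-type replicate 3. Nr1h3, the sterol-sensing receptor LXR alpha, stood at 16.7 ± 2.31 against 33.1 ± 3.75 FPKM. The scavenger receptor Cd36 stood at 188 ± 12.9 against 312 ± 57.4 FPKM, short of the size limit. Apoe, the lipoprotein ligand that macrophages secrete and one of the most abundant transcripts, went the other way, with 7522, 7115, 8079 and 5652 FPKM in the rich and 4128, 3768, 3766 and 2871 FPKM in the poor libraries, a difference of 0.79. Itgax, Msr1, Gpnmb, Lpl, Fabp4, Fabp5, Nr1h3, Cd36 and Apoe did not pass under dexamethasone. The slopes of Itgax, Msr1, Gpnmb, Lpl and Apoe were -0.15 ± 0.06, -0.12 ± 0.05, -0.22 ± 0.07, -0.06 ± 0.05 and -0.05 ± 0.04 (SE; limma adjusted p from 0.118 to 0.541).

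Tfrc, the transferrin receptor for iron uptake, was lower in stroma-rich cultures, with 51.2, 55.5, 67.8 and 102 FPKM against 116, 314, 255 and 284 FPKM. The lowest poor library, wild-type replicate 3 at 116 FPKM, stood only just above the highest rich one, knockout-labelled replicate 4 at 102 FPKM, and within the poor class the wild-type library was far below the others. Anxa1, an anti-inflammatory phospholipid-binding protein, stood at 327 ± 34.7 against 726 ± 53.9 FPKM. Atp6v0d2, a proton pump subunit used by fusing macrophages and osteoclasts, stood at 87.5 ± 29.1 against 170 ± 34.7 FPKM. Ahrr, a repressor of the aryl hydrocarbon receptor, stood at 1.39 ± 0.703 against 6.36 ± 1.92 FPKM. It was 1 of the 4 genes called lower in vehicle that also passed with a negative slope under dexamethasone (the others were Gpr137b, Pla2g7 and Snord17), at -0.26 ± 0.05 (SE; limma adjusted p = 0.0165). Gpr137b, a lysosomal membrane protein, stood at 26.8 ± 6.26 against 52.5 ± 7.84 FPKM in vehicle and had a slope of -0.18 ± 0.03 (SE; limma adjusted p = 0.00831). Cd274, which encodes the checkpoint ligand PD-L1, also passed (slope -0.17 ± 0.03, SE; limma adjusted p = 0.0172) and in vehicle stood at 13.7 ± 3.16 against 20.7 ± 1.14 FPKM. The vehicle difference of Gpr137b, -1.10, was -0.69 without knockout-labelled replicate 4. Without wild-type dexamethasone replicate 4 these 3 calls were lost (adjusted p = 0.124, 0.0861 and 0.203), and that of Cd274 also without wild-type replicate 1 (0.0555).

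**Figure D5:**
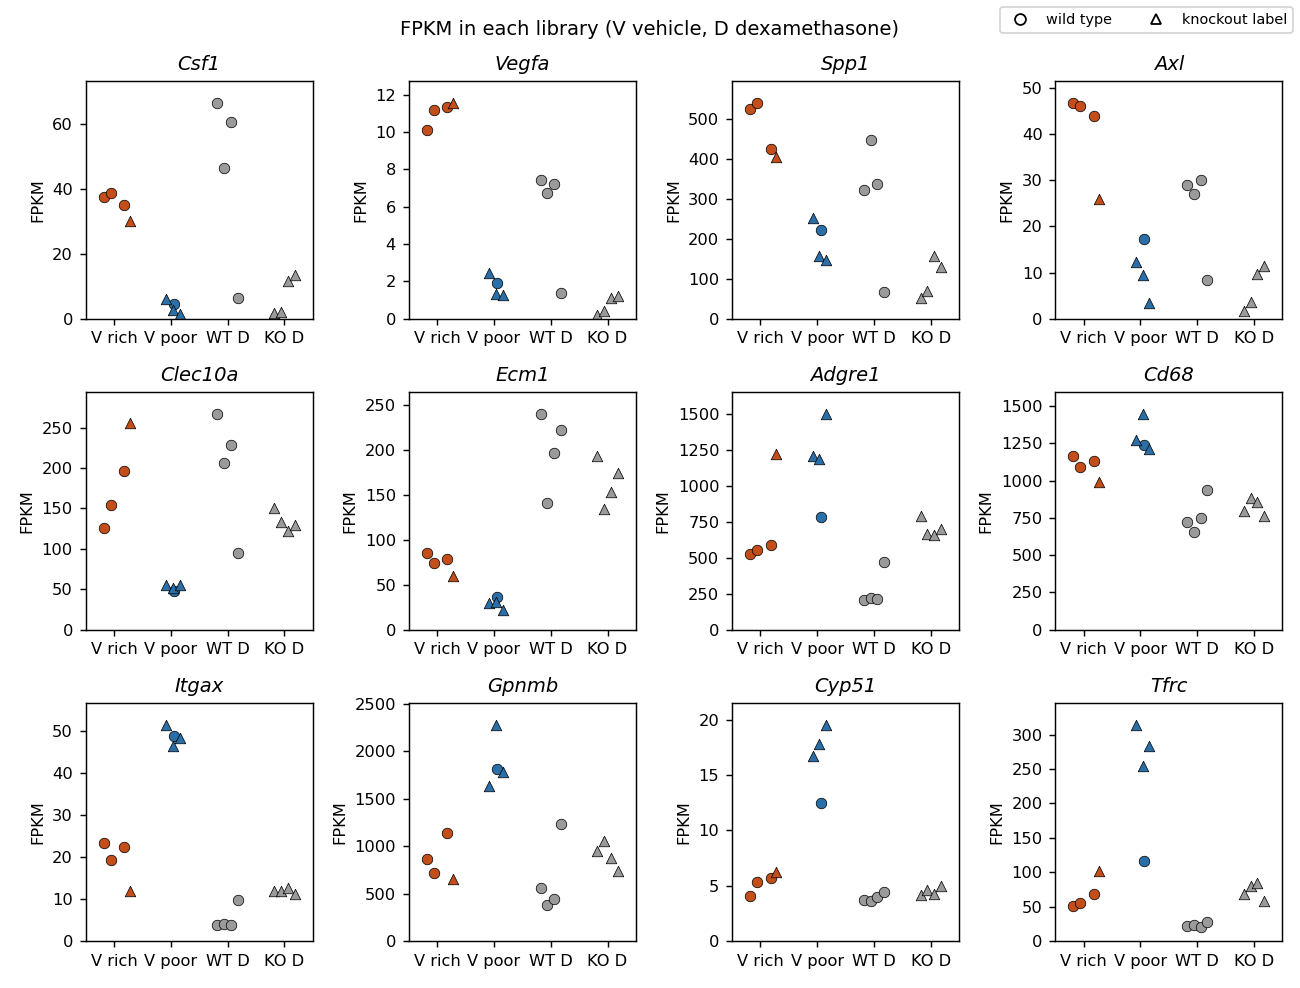
FPKM of 12 genes in each of the 16 libraries, on axes that start at 0, in stroma-rich and stroma-poor vehicle and in wild-type and knockout-labelled dexamethasone cultures (circles wild type, triangles knockout label). Csf1 and Vegfa are far lower in the poor libraries, Spp1, Axl, Clec10a and Ecm1 keep a part of their level, and Itgax, Gpnmb, Cyp51 and Tfrc are higher in the poor libraries.

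Genes of cholesterol synthesis and uptake were lower together in stroma-rich vehicle cultures. Of 18 measured, 6 were called lower, against 0.455% of all genes. Without the size limit, 17 were lower without overlap, against 16.5% of all genes, and 0 were higher. The median difference was -0.72. Cyp51 (ENSMUSG00000001467, chromosome 5, 4081145 to 4104746, minus strand, GRCm38), which demethylates lanosterol, measured 4.09, 5.30, 5.70 and 6.27 FPKM in the rich and 12.5, 16.7, 17.8 and 19.5 FPKM in the poor libraries, 3.11-fold higher in the poor ones. Msmo1, the methylsterol oxidase, stood at 6.12 ± 0.938 against 17.3 ± 2.65 FPKM, and Idi1, an isomerase early in the pathway, at 1.05 ± 0.236 against 4.16 ± 0.970 FPKM. Srebf2, the transcription factor that drives this pathway when sterol is scarce, stood at 27.0 ± 0.778 against 42.6 ± 6.09 FPKM. In each of these genes the stroma-poor wild-type library lay with the stroma-poor knockout-labelled ones, and the stroma-rich knockout-labelled library with the stroma-rich wild-type ones.

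Under dexamethasone the sterol genes did not follow Col1a1 in the same way. Of the 18, 0 passed in either direction by limma, and 2 had an unadjusted p under 0.05. Cyp51 lay between 3.57 and 4.97 FPKM in all 8 dexamethasone libraries, at a slope of -0.01 ± 0.02 (SE; limma adjusted p = 0.87). Under dexamethasone Cyp51 thus reached from below to within its stroma-rich vehicle range. Whether the slopes differ between treatments was not tested.

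Promoter sequences are shown because the sterol genes moved together in vehicle and the collagen genes moved the opposite way. They are the 250 bases before the gene's start in RefSeq, GRCm38.p6, 5′ to 3′ on the gene's strand, and overlap no GENCODE exon. Capitals mark CCAAT or its reverse complement ATTGG, the letters of the CCAAT box bound by NF-Y, and TCACCCCAC or GTGGGGTGA, letters of a sterol regulatory element bound by SREBP. Hmgcs1 and Mvd make and use mevalonate pathway intermediates, and Col3a1 is the collagen marker described above.
Col3a1, chr1:45311288-45311537, plus strand: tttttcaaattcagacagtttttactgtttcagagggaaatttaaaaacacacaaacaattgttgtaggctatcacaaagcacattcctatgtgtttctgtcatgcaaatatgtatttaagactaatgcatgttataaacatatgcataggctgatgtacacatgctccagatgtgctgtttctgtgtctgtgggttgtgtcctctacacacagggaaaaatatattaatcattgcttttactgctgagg
Hmgcs1, chr13:119690101-119690350, plus strand: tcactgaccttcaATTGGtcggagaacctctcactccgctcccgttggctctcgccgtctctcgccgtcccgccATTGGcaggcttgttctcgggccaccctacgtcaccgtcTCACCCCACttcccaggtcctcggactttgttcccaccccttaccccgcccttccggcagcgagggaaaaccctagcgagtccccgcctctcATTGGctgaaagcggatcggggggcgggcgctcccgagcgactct
Mvd, chr8:122443423-122443672, minus strand: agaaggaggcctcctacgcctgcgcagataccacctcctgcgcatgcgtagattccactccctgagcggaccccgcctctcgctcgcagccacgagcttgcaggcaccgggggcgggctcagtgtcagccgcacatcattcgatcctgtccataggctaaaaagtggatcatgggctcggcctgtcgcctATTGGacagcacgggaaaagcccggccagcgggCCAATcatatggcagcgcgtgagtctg

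Hmgcs1 holds 3 matches to CCAAT on either strand and 1 to TCACCCCAC, Mvd holds 2 matches to CCAAT, and Col3a1 holds 0 of either. In vehicle Hmgcs1 measured 5.39, 6.83, 8.21 and 8.17 FPKM in the rich and 12.5, 17.1, 14.6 and 18.7 FPKM in the poor libraries. Mvd stood at 8.34 against 16.7 FPKM in mean, also without overlap. Of the 13 measured sterol genes with an entry, 13 held CCAAT in these 250 bases, against 33.9% of all 32851 promoters and 6 of 13 measured collagen genes with an entry. A list gene counted once if any of its entries matched, whereas the 32851 promoters were counted singly. The list counts and the share of all promoters are therefore in unlike units. TCACCCCAC was in 1 of the 13 sterol genes and in 0.5% of all promoters. Letters that match are not evidence of binding.

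Cell cycle genes went both ways. Of 24 cell cycle genes, 3 were called higher, beside 4.62% of all genes. Each had under 20% left in both genotypes: Cdkn2a and Cdkn2b, inhibitors of cyclin-dependent kinases, and Ccnd2, a D-type cyclin. Cdkn2a measured 23, 21.1, 20.2 and 15.8 FPKM in the rich and 1.68, 3.12, 0.824 and 0.737 FPKM in the poor libraries and passed under dexamethasone (slope 0.67 ± 0.07, SE; limma adjusted p = 0.00168). Of the other 21 members, 19 had a difference below 0, with a median of -0.56, and 10 were lower without overlap, beside 16.5% of all genes. Mki67, a marker of dividing cells, stood at 3.03 ± 0.802 against 6.09 ± 1.05 FPKM, a difference of -0.81 that was -0.42 without wild-type replicate 3.

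Markers of other cells of marrow were also counted, since stroma is not 1 cell type. Where such markers were near 0 in the poor libraries they passed the filter on low values through the libraries where they were high, so being called higher was largely fixed by passing. Of 15 osteoblast and cartilage markers, 4 passed the filter, and the 15 had a summed level of 11.7 to 18 FPKM in the rich and 1.25 to 2.30 FPKM in the poor libraries. Ibsp, which encodes bone sialoprotein, stood at 1.46 FPKM in mean in the rich libraries and is listed at 0 in all 4 poor ones. Of 9 pericyte and smooth muscle markers, 2 passed the filter, Notch3 and Acta2, and the 9 had a summed level of 36.8 to 68.6 FPKM in the rich and 0.710 to 2.96 FPKM in the poor libraries. Of 14 endothelial markers, 8 passed the filter, and the 14 had a summed level of 15.3 to 26.1 FPKM against 8.02 to 12.1 FPKM. Cdh5, the cadherin of vessel lining, stood at 3.51 ± 1.46 against 0.117 ± 0.126 FPKM, whereas Kdr, a VEGF receptor of the same cells, stood at 0.965 against 1.24 FPKM in mean with overlap. Of 11 adipocyte markers, 6 passed the filter. Of these, 1 was called higher and 2, Fabp4 and Lpl, which macrophages also express, lower, beside 4.62% and 0.455% of all genes. Adipoq, the fat-cell hormone adiponectin, measured 0.704 to 2.14 FPKM in the rich libraries and 0.0838 FPKM in wild-type replicate 3, and is listed at 0 in the other 3 poor ones. It did not pass under dexamethasone (slope 0.35 ± 0.15, SE; limma adjusted p = 0.243). Of 16 neutrophil and progenitor markers, 3 passed the filter, and Mmp8, a neutrophil collagenase, was lower in the rich libraries at 1.07 ± 0.629 against 5.27 ± 1.48 FPKM. Of 12 T and NK cell markers, 1 passed the filter, and of 9 mast cell and basophil markers, 0 did. Of 12 B cell markers, 4 passed the filter and 1, Ebf1, which stromal cells also express, was called higher, beside 4.62% of all genes. Of 9 dendritic cell markers, 2 passed the filter and 1, Itgax, was called lower, beside 0.455% of all genes. Of 12 erythroid and megakaryocyte markers, 1 passed the filter and 0 were called, beside 4.62% of all genes called higher and 0.455% lower.

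Of 22 inflammatory and NF-kB genes, 10 MHC class II genes and 14 housekeeping genes, 0 were called higher, and 1, Tfrc, was called lower. The shares over all genes were 4.62% and 0.455%, so few calls would be looked for in lists this short. The median differences of these 3 lists were 0.05, 0.40 and -0.08. Of 14 osteoclast and fusion genes, 1 was called lower and 7 were lower without overlap, beside 0.455% and 16.5% of all genes. Of 17 complement genes, 4 were called higher (Serping1, C1s1, C4b and C1ra) and 1, Itgax, lower, beside 4.62% and 0.455% of all genes. C1s1, a protease of the first complement component, stood at 11.4 against 0.446 FPKM in mean. Of 27 matrix and scavenger receptors of macrophages, 2 were called higher (Clec10a and Axl) and 1, Msr1, lower, beside 4.62% and 0.455% of all genes. Without the size limit, 10 of these receptors were lower without overlap, again beside 16.5% of all genes, and the median was -0.33. Of 18 glycolysis and hypoxia genes, 1, Vegfa, was called, a share near the 4.62% of all genes, and the median was -0.03. Of 21 genes of TGF-beta signalling, 4 were called higher, beside 4.62% of all genes, each with under 20% left in both genotypes. The receptor genes Tgfbr1 and Tgfbr2 had differences of -0.57 and 0.11. H19, an imprinted RNA of mesenchymal cells, was called higher at 52.9 ± 23.7 against 0.912 ± 1.75 FPKM and did not pass under dexamethasone (slope 0.52 ± 0.15, SE; limma adjusted p = 0.0877).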

How the data were processed

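For each library the authors deposited FPKM of 54532 Ensembl gene identifiers. The submitters' processing notes name TopHat2 2.0.12, Bowtie2 2.2.3, DESeq2 and HTSeq 0.6.1, and the builds mm10 and GRCm38. The sources used here give neither strand setting nor annotation version, so overlapping and antisense genes cannot be told apart. GENCODE M21 (GRCm38) supplied symbols, coordinates and lengths for 54495 identifiers.

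From these values log2(FPKM + 1) was computed for genes that reached 1 FPKM in 4 or more of 16 libraries. FPKM are not counts, so dexamethasone slopes were fitted with limma 3.58.1 in R 4.3.3 (variance trend, two-sided, 5 residual degrees of freedom) and adjusted by Benjamini-Hochberg over 11653 genes, Col1a1 left out. The pseudocount of 1 FPKM understates differences of low genes. Other steps used Python 3.11.15, pandas 2.3.3 and matplotlib 3.10.9. Depth was recovered from FPKM steps, with 96.3% to 96.7% of values whole within 0.05 reads. The slope fit was tested on simulated data over 11653 genes and recovered 79 of 100 slopes of 0.25 and 94 of 100 slopes of 0.5.

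The members and the 32 gene lists were chosen with earlier results of these data known. Named genes are the 3 markers and Foxo3, the 15 steepest in each direction of each comparison (predicted genes skipped), the first 4, the 4 largest and the 4 smallest adjusted p of each list, and the 15 most abundant held and lower genes. Not all are printed, some genes are not reported here, and the remaining genes in the text were chosen after their values were seen. Alternatives were another pseudocount, filter, scaling, split, stromal measure, genotype treatment, moderation, a replicate block, and leaving out each library in turn.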

Additional observations from a re-analysis of the deposited data

Results flagged for a closer look

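Among 78 genes in 4 sets of 4 libraries each (312 sets), single libraries stood apart by Dixon's criterion for 4 samples, which chance alone meets in about 1 in 20 sets. In all, 31 flags were raised, with the P4hb difference given below among them, and some may be chance. Most belonged to 1 library. Wild-type dexamethasone replicate 4, with the least Col1a1 of its group, stood apart from replicates 1 to 3 on the low side in Col3a1 (7.33 FPKM), Lox (21.2), Dcn (1.30), Mmp2 (3.40), Timp1 (6.04), Mmp14 (4.19), Pdgfra (1.55), Axl (8.43), Csf1 (6.38), Kitl (3.25), Vegfa (1.39), Cxcl5 (0.835), Mgl2 (3.52), Ccnd2 (0.772) and H19 (1.08 FPKM). It stood apart on the high side for Adgre1 (472 FPKM), Csf1r (793), Itgax (9.88) and Ahrr (3.55 FPKM).

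In stroma-poor vehicle cultures, wild-type replicate 3 held more Cxcl12 (4.18 FPKM), Cxcl5 (1.40), H19 (3.53) and Adipoq (0.0838 FPKM) than the 3 knockout-labelled libraries. In stroma-rich vehicle cultures, knockout-labelled replicate 4 differed from the 3 wild-type libraries in Axl (26.0 FPKM), C1qa (839.8), Adgre1 (1225), Fabp4 (6.6) and Itgam (34.7 FPKM). In both cases the library that stood apart was the only one of its genotype in the class. Knockout-labelled dexamethasone replicate 3 was high in Lpl (126 FPKM) and Anxa1 (361 FPKM).

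The vehicle difference of P4hb had opposite signs in all libraries of the 2 genotypes, 0.24 in wild type and -0.10 under the knockout label. That difference was not tested.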

How the results depend on the processing

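Counts of genes moved with the settings more than the direction of single genes did, and among the 78 genes rerun one by one no value that was called or had passed changed sign under the alternatives run. Genes called higher and lower in vehicle (538 and 53) were 745 and 117 with a pseudocount of 0.1, 543 and 53 with no filter, 263 and 40 with a filter of 5 FPKM (fewer genes tested), 536 and 47 with median-ratio scaling, 261 and 32 with the split at 5 FPKM, and 574 and 44 with genotype ignored. Leaving out 1 library gave 506 to 594 and 51 to 92. Without knockout-labelled vehicle replicate 4, 63 genes were called lower, and 32 of them were among the 53. Genes that passed with a positive and a negative slope under dexamethasone (506 and 41) were 599 and 28 with a pseudocount of 0.1, 76 and 7 with no filter (28195 genes tested), 307 and 31 with a filter of 5 FPKM, 1099 and 499 with the mean of Col3a1, Col1a2 and Cxcl12 in place of Col1a1, and 1724 and 2082 with no genotype term. Leaving out 1 library gave 241 to 605 and 11 to 134. The cause of these changes was not tested. Without a filter, 19 of the 78 genes, all of which had passed, no longer did. A limit of 10% left gave 315 genes that fell with Col1a1, 150 held and 73 mixed, and a limit of 33% gave 475, 26 and 37. The replicate block gave 515 and 63 genes, with 2 residual degrees of freedom, and 424 and 19 of them were among the 506 and the 41. Deviations from group means were compared between same-numbered wild-type and knockout-labelled dexamethasone libraries only, and correlated at -0.329, -0.203, 0.352 and -0.472. Vehicle libraries did not enter, so whether replicate numbers pair samples across treatments was not tested. Depth limits genes near 1 FPKM, which rest on 32.9 to 39.7 reads in a gene of 2 kb.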
